A study of Mus musculus with 16 samples.

Results

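The 10 genes described here are the core genes of the circadian clock and its best known output gene: Arntl (also called Bmal1), Clock, Per1, Per2, Per3, Cry1, Cry2, Nr1d1, Nr1d2 and Dbp. They were chosen by name, and all 10 were found among the 23179 genes listed for mouse mammary adipose tissue. The tissue was the 9th mammary fat pad, on the side opposite to a tumor grown from E0771 mammary cancer cells injected into the 4th pad. RNA-Seq of total RNA gave 16 libraries, with 4 in every 1 of the 4 groups. The questions addressed were whether the levels of these genes differed between the groups and how the genes varied with each other from library to library.

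All mice were C57BL/6N females (C57BL/6NCrl in the study's methods) of genotype wt that started a diet at 9 weeks of age and were killed about 35 weeks old, 4 weeks after the tumor cell injection at week 22 of the diets. CON-LFD mice ate a low-fat diet (10% of energy from fat) throughout and had a sham operation. DIO-HFD mice ate a high-fat diet (60% of energy from fat) throughout, became obese and had a sham operation. DIO-LFD mice ate the high-fat diet for 15 weeks, then had a sham operation and were moved to the low-fat diet, eaten at will. DIO-VSG mice ate the high-fat diet for 15 weeks and then had a vertical sleeve gastrectomy, the removal of most of the stomach along its outer curve, followed by the low-fat diet. Lights were on for 12 hours and off for 12 hours. The hour at which each mouse was killed is not given in the sources used here, so hour of death and group cannot be told apart.

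The clock is a feedback loop that runs in nearly every cell, adipocytes included, with a period of about a day. ARNTL and CLOCK pair and switch on the Per and Cry genes through E-box sequences, and the PER and CRY proteins then block that pair. In a linked loop, the REV-ERB receptors encoded by Nr1d1 and Nr1d2 repress Arntl. DBP is an output factor that acts on D-box sequences, and its own gene is switched on by ARNTL and CLOCK. Arntl RNA is therefore high when Dbp and REV-ERB RNA are low, and Nr1d1 RNA peaks before Per and Cry1 RNA.

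Short promoter stretches are shown because the clock factors are known to act on each other's genes through the elements spelled in them. RefSeq promoter windows on GRCm38.p6, each from 250 bases before to 50 bases after a start site, matched 9 of the 10 genes, and Per2 had none. The E-box was searched as CACGTG, its variant as CACGTT and the D-box as TTATGTAA or TTACGTAA, on both strands and with any overlap. The REV-ERB response element was searched by its consensus. The stretches below carry a match, with the matching letters in capitals.
Arntl, REV-ERB response element, chr7:113207528-113207556, plus strand: ggaaggcagAAAGTAGGTCAgggacggag
Per1, E-box, chr11:69098771-69098800, plus strand: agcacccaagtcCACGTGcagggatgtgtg
Cry1, E-box, chr10:85185097-85185126, minus strand: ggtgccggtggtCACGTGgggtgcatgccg
Per3, a pair of D-boxes, chr4:151044810-151044876, minus strand: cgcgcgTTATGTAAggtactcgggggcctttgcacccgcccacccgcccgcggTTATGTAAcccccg

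The Arntl element lay 27 to 37 bases after the later of the 2 RefSeq start sites of the gene. Counted from the start site, with bases before it negative, the Per1 E-box lay at −166 to −161 of the earlier of 2 sites, the Cry1 E-box at −60 to −55, and the Per3 D-boxes began at −205 and −158. Of all 32851 promoter windows, 0.384% held the REV-ERB response element, 7.15% CACGTG, 4.68% CACGTT, 0.938% TTATGTAA and 0.119% TTACGTAA. Cry1, Cry2 and Nr1d1 also held the E-box variant CACGTT. The windows of Clock, Nr1d2 and Dbp held none of these letters, which says nothing of elements elsewhere in those genes. A match is a description of the sequence and not a site of measured binding.

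The libraries held between 46907377 and 57610899 reads, and the lowest value of any of the 10 genes in any library was 170 reads, so counting error was small beside the differences between libraries. Levels are given as normalized counts, which are reads divided by a size factor for each library. The markers of 11 cell types were detected, and no marker was at 3 reads or fewer in every library. Summed adipocyte markers ranged from 382832 to 1470524. Summed B cell markers ranged from 217 in CON-LFD replicate 2 to 74579 in DIO-HFD replicate 1 and were even in DIO-VSG, from 50980 to 59457. Summed skeletal muscle markers reached 127858 in DIO-LFD replicate 4, keratinocyte markers 9039 in DIO-HFD replicate 4 and erythroid markers 241312 in DIO-LFD replicate 1. In bulk tissue, fewer cells of a type and less RNA per cell cannot be told apart.

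Per kilobase of exon, Nr1d1 had the highest mean level of the 10 and Arntl the lowest. The mean over the 16 libraries was 2704 normalized counts per kilobase for Nr1d1, 1464 for Dbp, 1241 for Per1 and 1236 for Nr1d2. Per2, Cry2 and Per3 followed at 620, 611 and 598, then Clock at 326, Cry1 at 232 and Arntl at 77.3. Neighbours in this order overlapped in their ranges over libraries: Nr1d1 ran from 891 to 4399 and Dbp from 110 to 3047. Arntl, from 24.0 to 125, overlapped none of the genes above Cry1 except Dbp and did not reach the lowest value of Cry1, which was 133.

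By limma, none of the 10 reached an adjusted P value below 0.05 in the 6 comparisons of groups or in the test for a difference among all 4 groups (Benjamini-Hochberg over 21218 genes). In the comparison over all 4 groups, 0% of all genes passed. At an unadjusted P value below 0.05, that test marked 3 of the 10, Arntl, Nr1d2 and Per3, against 12.7% of all genes. Their limma adjusted P values were 0.343, 0.362 and 0.379. The values below are therefore levels and intervals, and a P value that misses the threshold does not show that groups were alike.

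**Figure D1:**
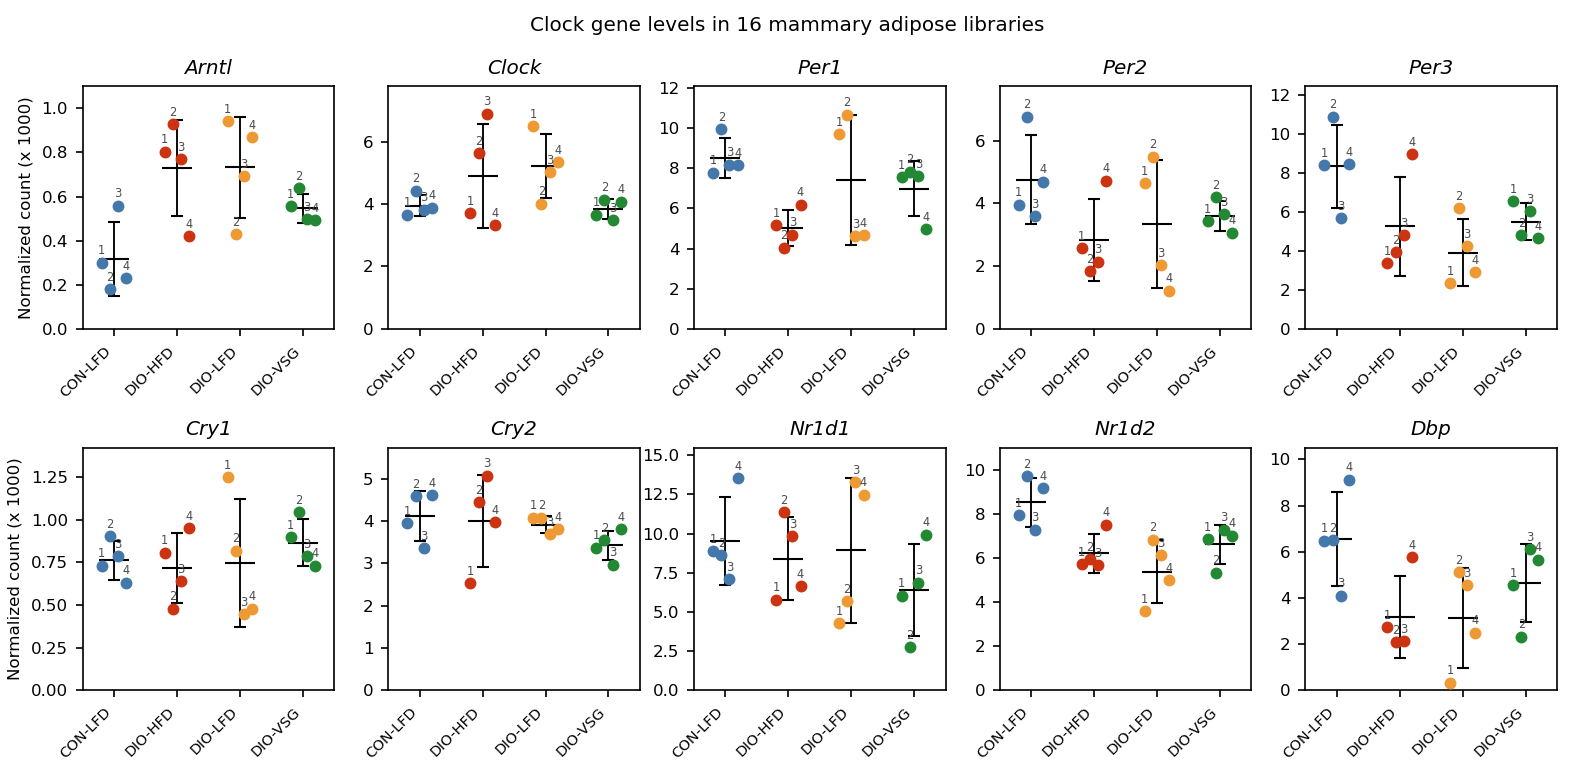
Normalized counts, divided by 1000, of the 10 clock genes by group, with 1 point per library marked by its replicate number and the group mean with its SD (n = 4) in black. Each axis starts at 0. Arntl was lowest in 3 of the 4 CON-LFD libraries, and Dbp in DIO-LFD replicate 1 lay at 329 normalized counts.

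Arntl encodes the activator whose RNA cycles most strongly. It lies on GRCm38 chromosome 7, from 113207465 to 113314126 on the plus strand (ENSMUSG00000055116.8, protein coding). Its level was 301, 180, 558 and 229 normalized counts in CON-LFD replicates 1 to 4 and 804, 927, 768 and 421 in DIO-HFD. It was 941, 428, 692 and 868 in DIO-LFD, and 556, 637, 498 and 494 in DIO-VSG. The low libraries were CON-LFD replicates 1, 2 and 4, which lay below every library of the other groups, while CON-LFD replicate 3 overlapped with each of them. That library also had the highest summed B cell markers of its group (56006, group median 8057), the highest T cell markers (25986, group median 4882) and the lowest adipocyte markers (672342, group median 1056508), whose part in its Arntl level was not tested. Group means were 317 ± 168 in CON-LFD, 730 ± 217 in DIO-HFD, 732 ± 228 in DIO-LFD and 546 ± 66.9 in DIO-VSG (SD, n = 4).

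The fitted level of Arntl was 2.42-fold higher in DIO-HFD than in CON-LFD, or 1.28 ± 0.34 (SE) in log2 units, with an adjusted P of 0.206 by limma. The value in DIO-LFD was also 1.28 (SE 0.34, limma adjusted P = 0.478), and in DIO-VSG it was 0.91 (SE 0.34, limma adjusted P = 0.268). These 3 comparisons share the CON-LFD libraries. Without CON-LFD replicate 3, the log2 fold change was 1.59 in DIO-HFD (limma adjusted P = 0.0400) and 1.23 in DIO-VSG (limma adjusted P = 0.0473), where 0.603% and 4.11% of all genes then passed. With all libraries kept and weighted by how well each fitted (limma's array weights), Arntl also passed in DIO-VSG (0.89, limma adjusted P = 0.0410), as did 19.9% of all genes, while in DIO-HFD it was 0.65 (limma adjusted P = 0.0812). DIO-HFD replicate 4 had a weight of 10.9 there, against 0.222 to 2.35 for the other 15 libraries, so weighted DIO-HFD values rest mostly on that library. In DIO-LFD, Arntl without CON-LFD replicate 3 was at 1.59 with a limma adjusted P of 0.157. Over 29 alternative settings, the limma adjusted P for DIO-HFD against CON-LFD ranged from 0.0400 to 0.567, and Arntl stayed higher in DIO-HFD in each. DIO-LFD and DIO-HFD had a log2 difference in Arntl of 0.00 (95% interval −0.72 to 0.72), which was 0.62 with library weights (limma adjusted P = 0.109).

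Clock encodes the partner of ARNTL, and it is on chromosome 5 (76209868 to 76304792, minus strand, ENSMUSG00000029238.11). It was at 3663, 4424, 3823 and 3879 normalized counts in CON-LFD, and at 3716, 5624, 6889 and 3327 in DIO-HFD. The DIO-LFD values were 6492, 4013, 5010 and 5339, and the DIO-VSG values 3658, 4139, 3478 and 4077. CON-LFD and DIO-VSG were tight, and the highest levels were in DIO-HFD replicate 3 and DIO-LFD replicate 1. DIO-VSG had a lower mean than DIO-LFD, 3838 ± 321 against 5213 ± 1022 (SD, n = 4), with a log2 fold change of −0.42 (95% interval −0.85 to 0.00, limma adjusted P = 0.51), or −0.23 with the adipocyte markers as a term.

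The Period genes encode the repressors that are made early in the cycle. Per1 is on chromosome 11 (69095217 to 69109960, plus strand, ENSMUSG00000020893.17). Per1 was at 7776, 9956, 8182 and 8153 normalized counts in CON-LFD and at 5173, 4055, 4696 and 6181 in DIO-HFD. Every DIO-HFD library lay below every CON-LFD library, as did 3% of all genes tested. The means were 5026 ± 896 and 8517 ± 977 (SD, n = 4), and the log2 fold change was −0.77 (SE 0.26, limma adjusted P = 0.257).

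In DIO-LFD, Per1 fell into a high and a low pair. Replicates 1 and 2 were at 9705 and 10670 normalized counts, and replicates 3 and 4 at 4623 and 4683. DIO-VSG was at 7568, 7829, 7601 and 4974, where the last library stood apart from the others. Against DIO-HFD, the log2 fold change of Per1 was 0.47 in DIO-LFD (95% interval −0.09 to 1.03) and 0.47 in DIO-VSG (−0.09 to 1.03), and the adjusted P values by limma were 0.69 and 0.409, respectively. With library weights these differences were −0.01 and 0.17, and the DIO-LFD one was 0.30 without DIO-LFD replicate 1 and 0.26 without replicate 2.

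Per2 lies on chromosome 1 (91415982 to 91459324, minus strand, ENSMUSG00000055866.9). It was at 3961, 6764, 3592 and 4698 normalized counts in CON-LFD, and at 2578, 1851, 2142 and 4729 in DIO-HFD. The DIO-LFD values were 4651, 5489, 2043 and 1218, and those of DIO-VSG 3440, 4209, 3663 and 3071. The DIO-LFD libraries split into the same pairs as for Per1. DIO-HFD replicate 4 was the only library of its group within the CON-LFD range, and the log2 fold change was −0.81 (95% interval −1.69 to 0.08, limma adjusted P = 0.432). With library weights it was 0.02 (limma adjusted P = 0.968).

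Per3 lies on chromosome 4 (151003652 to 151044665, minus strand, ENSMUSG00000028957.12) and carries the D-box pair printed above. Its normalized counts were 8371, 10875, 5659 and 8426 in CON-LFD, and 3360, 3936, 4799 and 8939 in DIO-HFD. They were 2327, 6169, 4229 and 2898 in DIO-LFD, and 6533, 4799, 6021 and 4640 in DIO-VSG. CON-LFD replicate 3 was the lowest of its group and DIO-HFD replicate 4 and DIO-LFD replicate 2 the highest of theirs, so the groups overlapped through these libraries. The log2 fold change against CON-LFD was −0.73 in DIO-HFD (SE 0.33, limma adjusted P = 0.361) and −1.16 in DIO-LFD (SE 0.33, limma adjusted P = 0.512). In DIO-VSG it was −0.58 (95% interval −1.27 to 0.12, limma adjusted P = 0.337).

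The cryptochromes are the partners of the PER proteins. Cry1 (chromosome 10, 85131700 to 85185064, minus strand, ENSMUSG00000020038.10) was at 731, 904, 786 and 631 normalized counts in CON-LFD, and at 808, 478, 640 and 949 in DIO-HFD. In DIO-LFD it was at 1250, 819, 445 and 478, and in DIO-VSG at 898, 1046, 788 and 731. DIO-LFD replicates 1 and 2 were again above replicates 3 and 4, and the 4 group means, from 719 to 866, lay within 1 SD of DIO-LFD (375). Cry2 (chromosome 2, 92403646 to 92434043, minus strand, ENSMUSG00000068742.11) was the steadiest of the 10 genes, with its highest level 2.0 times its lowest.

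Cry2 was at 3949, 4576, 3362 and 4601 normalized counts in CON-LFD and at 2527, 4449, 5063 and 3970 in DIO-HFD. It was at 4074, 4077, 3690 and 3797 in DIO-LFD and at 3370, 3546, 2968 and 3798 in DIO-VSG. Its ranges overlapped between all groups. The largest difference, between DIO-VSG and CON-LFD, was −0.26 on the log2 scale (95% interval −0.64 to 0.11, limma adjusted P = 0.399), and it was −0.01 with the adipocyte and 0.06 with the lymphoid markers as a term.

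Nr1d1, which encodes REV-ERB alpha, is on chromosome 11 (98767932 to 98775333, minus strand, ENSMUSG00000020889.11). It was at 8885, 8633, 7085 and 13537 normalized counts in CON-LFD, and at 5779, 11361, 9840 and 6636 in DIO-HFD. DIO-LFD had 4278, 5704, 13291 and 12482, and DIO-VSG 6044, 2741, 6877 and 9929. The DIO-LFD libraries split as before, but the other way round: replicates 3 and 4, which were low in Per1, Per2 and Cry1, were the high ones here. With all libraries, no comparison of groups reached an unadjusted P value of 0.05 for Nr1d1. Its widest difference was −0.68 on the log2 scale between DIO-VSG and CON-LFD (95% interval −1.58 to 0.23, limma adjusted P = 0.374), which was −0.31 without DIO-VSG replicate 2 and −0.38 with the lymphoid markers as a term. Without DIO-VSG replicate 4 it was −0.93, with an unadjusted P value below 0.05.

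Nr1d2, which encodes REV-ERB beta, is on chromosome 14 (18204054 to 18239127, minus strand, ENSMUSG00000021775.11). It was at 7960, 9709, 7292 and 9170 normalized counts in CON-LFD, and at 5714, 5944, 5668 and 7515 in DIO-HFD. The values were 3580, 6837, 6126 and 4989 in DIO-LFD, and 6857, 5338, 7284 and 7025 in DIO-VSG. Every DIO-LFD library lay below every CON-LFD library, and so did every DIO-VSG library, the latter by 7284 against 7292 at the nearest. Of all genes tested, 1.81% lay wholly below CON-LFD in DIO-LFD and 4.43% in DIO-VSG. The log2 fold change against CON-LFD was −0.70 in DIO-LFD (SE 0.18, limma adjusted P = 0.472), −0.46 in DIO-HFD (limma adjusted P = 0.309) and −0.37 in DIO-VSG (limma adjusted P = 0.293).

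Dbp lies on chromosome 7 (45705088 to 45710203, plus strand, ENSMUSG00000059824.12) and varied most. It was at 6486, 6510, 4103 and 9119 normalized counts in CON-LFD, and at 2726, 2082, 2130 and 5773 in DIO-HFD. DIO-LFD had 329, 5112, 4564 and 2502, and DIO-VSG 4564, 2324, 6109 and 5665. The highest library was 27.7 times the lowest, and the lowest, DIO-LFD replicate 1, was far below all others. In range, Dbp ranked first through this library alone. Its next lowest value was 2082, in DIO-HFD replicate 2, while the highest level of Per2 was 5.55 times its lowest. The SD of log2 values within groups was 1.06 for Dbp, higher than in 96% of 14457 genes compared, whose median was 0.255. This SD also leaned on that library. It was 1.835 in DIO-LFD, against 0.473 in CON-LFD, 0.688 in DIO-HFD and 0.634 in DIO-VSG.

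Dbp was lower in DIO-LFD than in CON-LFD with a log2 difference of −1.59 ± 0.69 (SE) and an adjusted P of 0.766 by limma. Without DIO-LFD replicate 1 this was −0.70 (limma adjusted P = 0.935). In DIO-HFD it was −1.12 with all libraries (limma adjusted P = 0.515), and with the same library left out the estimate was the same and the limma adjusted P was 0.254, since the groups share 1 estimate of spread. With library weights it was −0.30 (limma adjusted P = 0.681). DIO-LFD replicate 1 held the highest sums of its group for erythroid (241312), endothelial (67476) and adipocyte (1470524) markers and for glucocorticoid-responsive (135878), immediate early (33614) and temperature responsive (104858) genes. It held the lowest sums for stromal fibroblast markers (31707, group median 87758), B cell markers (13665), T cell markers (7047), mammary epithelial markers (34134) and feeding and fasting responsive genes (148170, group median 658155). Fasn, the fatty acid synthase gene, made up much of the feeding and fasting sums, with a DIO-LFD mean of 427800 normalized counts. The part of these markers and genes in the Dbp level was not tested.

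**Figure D2:**
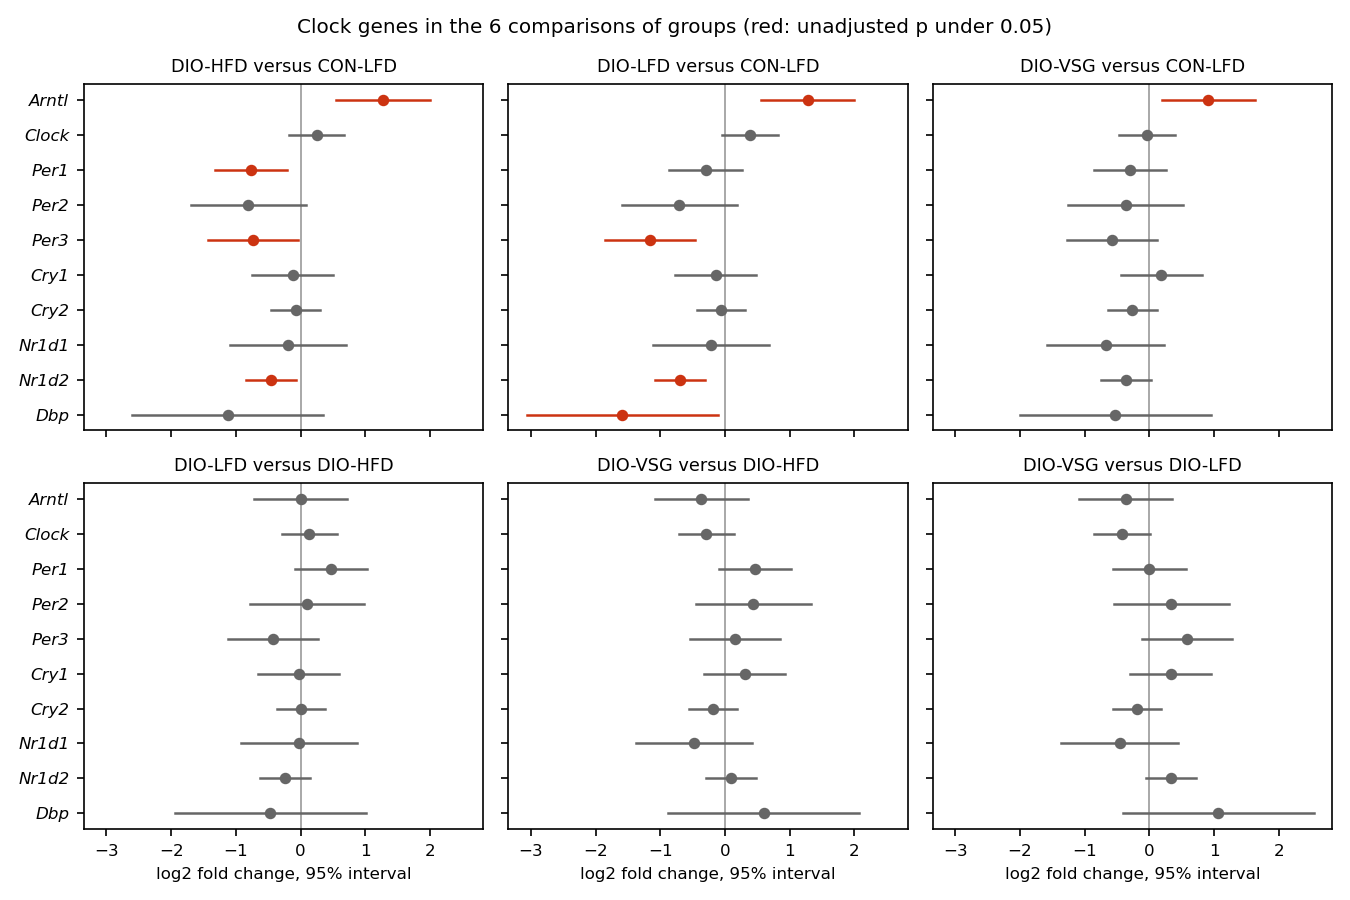
Log2 fold change (points) with its 95% interval (lines) from limma for each of the 10 clock genes in the 6 comparisons of groups, with positive values higher in the group named first. Red marks an unadjusted P value below 0.05, and no gene passed the adjusted threshold. The comparisons in the upper row share the CON-LFD libraries.

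Obesity on the high-fat diet was addressed by setting DIO-HFD against CON-LFD. At an unadjusted P value below 0.05, 4 of 10 genes were marked by limma against 12.9% of all genes tested, and 0 of 10 passed the adjusted threshold against 0.0377%. Arntl was the 1 higher gene, against 5.23% of all genes, and Per1, Per3 and Nr1d2 were the 3 lower ones, against 7.66%. Per3 was not marked with the adipocyte or lymphoid markers as a term, where Clock was marked instead. It was not marked with quantile normalization or a replicate block either. With only the groups compared, Dbp and Per2 were marked and Per3 was not. With library weights, Arntl was the only 1 of the 10 at an unadjusted P value below 0.05, against 37.5% of all genes, and the log2 fold changes were −0.44 for Per1, −0.02 for Per3 and −0.17 for Nr1d2. Clock (−0.14) and Cry1 (0.30) changed sign, as did Per2. Leaving out 1 library left 2 to 6 genes below that P value, against 8.53% to 19.7% of all genes, with Arntl and Per1 in every case. The count was 2 without CON-LFD replicate 2 or 4 (8.53% and 12.4% of all genes) or DIO-HFD replicate 1 or 3 (11.1% and 12.6%). It was 6 without DIO-HFD replicate 4 (13%). The median log2 fold change was −0.33 over the 10 genes and 0.02 over all genes tested. Of the 10, 2 had a higher mean (Arntl and Clock) and 8 a lower one. Of the cell type markers, 3 of 3 for brown adipocytes, 3 of 7 for mammary epithelium and 1 of 7 for skeletal muscle were lower at an unadjusted P value below 0.05, 1 of 4 for endothelium was higher, and 0 passed the adjusted threshold (limma). Summed brown adipocyte markers ranged from 145 to 640 in DIO-HFD and from 1623 to 44578 in CON-LFD. Their part in the clock gene levels was not tested.

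The comparison of DIO-LFD with CON-LFD asked about mice that had been obese and were then on the diet of the controls. Here too 4 of 10 genes had an unadjusted P value below 0.05 by limma, against 6.26% of all genes, with Arntl higher (against 3.23%) and Per3, Nr1d2 and Dbp lower (against 3.03%), and 0 passed the adjusted threshold against 0.00471%. The median log2 fold change was −0.26 over the 10 genes and 0.02 over all genes tested, and again only Arntl and Clock had a higher mean. Dbp was no longer marked without CON-LFD replicate 1, 2 or 4 or DIO-LFD replicate 1, while the other 3 were marked whichever library was left out. With library weights or with only these groups fitted, Clock was marked and Dbp was not, where 17% and 4.9% of all genes were marked. In DIO-VSG against CON-LFD, Arntl alone had an unadjusted P value below 0.05 by limma and was higher, against 17.8% of all genes in either direction and 10.2% higher, and 0 of 10 and 0% of all genes passed the adjusted threshold. The median there was −0.33, beside −0.02 over all genes. Arntl was not marked there without CON-LFD replicate 2 or with the lymphoid markers as a term, and the count was 3 (Arntl, Nr1d2 and Per3) without CON-LFD replicate 3, against 30.5% of all genes, or with only these groups fitted, against 20.7%. It was 2 without replicate 4 of DIO-VSG (Arntl and Nr1d1), replicate 1 of DIO-HFD (Arntl and Cry2), or either of replicates 1 and 2 of DIO-LFD (Arntl and Nr1d2), against 14.5% to 22.4% of all genes. Of the markers, 6 of 6 for B cells and 6 of 8 for T cells were higher in DIO-VSG and 1 of 7 for mammary epithelium was lower at an unadjusted P value below 0.05, with 0 past the adjusted threshold (limma).

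No clock gene passed the threshold between either form of weight loss and DIO-HFD, except that with library weights Clock (log2 fold change 0.53, limma adjusted P = 0.0249) and Per3 (−1.10, limma adjusted P = 0.0204) did so in DIO-LFD, where 8.54% of all genes then passed and 6 of 10 clock genes had an unadjusted P value below 0.05, against 26.4% of all genes. Without weights, DIO-LFD against DIO-HFD had 0 of 10 genes by limma at an unadjusted P value below 0.05, beside 8.53% of all genes, and DIO-VSG against DIO-HFD also 0 of 10, beside 13.2%. No gene of the 10 passed the adjusted threshold in either, nor did any gene of the whole table (0%). The study, which used the count model of DESeq2, reported numerous differentially expressed genes in both comparisons. Here limma on log2 values stands in for that model, so its 0% does not show that no gene differed. The intervals were wide: for Dbp, −1.94 to 1.01 in DIO-LFD and −0.88 to 2.08 in DIO-VSG, and for Cry2, −0.36 to 0.38 and −0.56 to 0.19. Surgical and dietary weight loss, DIO-VSG against DIO-LFD, likewise gave 0 of 10 by limma at an unadjusted P value below 0.05, beside 9.71% of all genes, and 0% of all genes passed the adjusted threshold. There the count was 3 (Clock, Nr1d2 and Per3) without DIO-LFD replicate 2, against 8.64% of all genes, and 2 (Clock and Cry1) with library weights, against 25.9%. It was at most 1 without any other library, against 5.11% to 13.3%. Leaving out 1 library gave at most 1 in the comparisons with DIO-HFD, against 5.95% to 9.21% of all genes for DIO-LFD and 7.47% to 27.5% for DIO-VSG. With library weights, DIO-VSG against DIO-HFD had 2 (Cry2 and Per3), against 33.9% of all genes, and Per3 moved there from 0.16 to −0.59. No clock gene separated the groups without overlap in these 3 comparisons, in which 4.51%, 6.59% and 18.8% of all genes did. Against DIO-HFD, some cell type markers had an unadjusted P value below 0.05, and 0 passed the adjusted threshold (limma). Mammary epithelial (4 of 7), brown adipocyte (2 of 3), adipocyte and muscle markers (1 each) were higher in DIO-LFD. Brown adipocyte (2 of 3), mammary epithelial and muscle markers (1 each) were higher in DIO-VSG. Endothelial (3 of 4), adipocyte, keratinocyte and fibroblast markers (1 each) were lower there. Their part in the clock gene levels was not tested.

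A summary value of each library, the mean log2 level of Per2, Per3, Nr1d1, Nr1d2 and Dbp minus that of Arntl, placed the libraries between low and high Arntl. It was 4.62 ± 1.01 in CON-LFD, 2.68 ± 0.86 in DIO-HFD, 2.47 ± 1.08 in DIO-LFD and 3.21 ± 0.47 in DIO-VSG (SD, n = 4). The CON-LFD libraries ran from 3.25 to 5.52 and those of DIO-VSG from 2.53 to 3.55, while DIO-HFD ran from 2.11 to 3.96 and DIO-LFD from 1.24 to 3.76. The highest values were those of CON-LFD replicates 2, 4 and 1, and CON-LFD replicate 3 lay among the other groups. The genes in this value were chosen for their known phase, and no test was made on it.

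The clock genes also varied together from library to library. For each of the 45 pairs of the 10 genes, Pearson's r was computed over the 16 libraries on log2 levels after the group means were subtracted. With 100000 permutations and Benjamini-Hochberg adjustment over the 45 pairs, 15 pairs passed an adjusted P of 0.05, 7 with r above 0 and 8 below, and 13 of these also passed by Spearman's rho. All 15 kept an r of at least 0.5 in size without the 2 libraries farthest from the median of the first gene. Not all of the 15 still passed without those libraries, as counted in the section on processing. When libraries were permuted only within their groups, an alternative added after the data had been seen, 10 of the 15 passed. The P values below are from permutations over all 16 libraries unless said otherwise. Those treat libraries of different groups as interchangeable, so the P values may be too small. Spread differed between groups, with an SD of log2 Dbp of 1.835 in DIO-LFD and 0.473 in CON-LFD. Pairs of other genes were not counted in this way, so 15 of 45 is not shown to be particular to clock genes.

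A first set held Arntl against Per3, Nr1d2 and Dbp. Arntl and Per3 had r = −0.87 and rho = −0.86 (permutation P = 1e-05 and 4e-05, adjusted P = 0.000225 and 0.0003), where 1e-05 is the smallest P these permutations can give. Without CON-LFD replicate 3 and DIO-HFD replicate 4, the libraries farthest from the Arntl median, r was −0.84. Arntl and Nr1d2 had r = −0.79 and rho = −0.87 (permutation adjusted P = 0.002 and 0.0003), and −0.79 without the same libraries. Libraries high in Arntl for their group were thus low in Per3 and Nr1d2, and without subtracting group means r was −0.89 and −0.87.

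Nr1d2 and Dbp were the closest pair, with r = 0.94 and rho = 0.91 (permutation P = 1e-05 for both, adjusted P = 0.000225 for both), and r = 0.88 without DIO-LFD replicates 1 and 2. Per3 went with Nr1d2 (r = 0.83, rho = 0.83, permutation adjusted P = 0.000675 and 0.000771, and 0.77 without 2 libraries) and with Dbp (r = 0.71, rho = 0.72, permutation adjusted P = 0.00585 and 0.00925, and 0.62 without 2 libraries). Arntl and Dbp had r = −0.64 and rho = −0.82 (permutation adjusted P = 0.0319 and 0.00118, and −0.62 without 2 libraries). Clock opposed Dbp with r = −0.62 and rho = −0.58, where rho did not pass (permutation adjusted P = 0.0394 and 0.0649, and −0.64 without 2 libraries). All 7 pairs of this set, Clock with Dbp included, also passed with permutations within groups.

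A further set held Per1, Per2 and Cry1, which went together and opposed Nr1d1. Per1 and Per2 had r = 0.89 and rho = 0.91 (permutation P = 2e-05 for both, adjusted P = 0.000225 for both), and r = 0.89 without DIO-LFD replicates 2 and 3. Per1 and Cry1 had r = 0.86 and rho = 0.89 (permutation adjusted P = 0.00027 and 0.000225, and 0.88 without 2 libraries), and Per2 and Cry1 r = 0.81 and rho = 0.81 (permutation adjusted P = 0.00141 and 0.00144, and 0.84 without 2 libraries). In DIO-LFD all of them were high in replicates 1 and 2 and low in replicates 3 and 4, as in the plot of levels by group.

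Nr1d1 opposed Cry1 with r = −0.87 and rho = −0.89 (permutation P = 2e-05 for both, adjusted P = 0.000225 for both), and −0.82 without DIO-LFD replicates 1 and 3. It opposed Per1 with r = −0.78 and rho = −0.80 (permutation adjusted P = 0.00174 and 0.00144, and −0.76 without 2 libraries) and Per2 with r = −0.64 and rho = −0.63 (permutation adjusted P = 0.0317 and 0.0378, and −0.58 without 2 libraries). With permutations within groups, Per1 with Per2, Per1 with Cry1 and Nr1d1 with Cry1 passed, while Per2 with Cry1 (adjusted P = 0.062), Nr1d1 with Per1 (0.062) and Nr1d1 with Per2 (0.11) did not. The remaining 2 of the 15 pairs were close to the threshold, Arntl with Per2 (r = −0.59, rho = −0.54, permutation adjusted P = 0.0481 and 0.104) and Clock with Cry2 (r = 0.59, rho = 0.63, permutation adjusted P = 0.0481 and 0.0378). Without 2 libraries their r was −0.52 and 0.61, and neither passed with permutations within groups.

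The other 30 pairs did not pass, and their r ranged from −0.55 for Clock with Nr1d2 to 0.51 for Per2 with Per3. Arntl and Nr1d1, the repressed gene and 1 of its repressors, had r = −0.10. Nr1d1 and Nr1d2, the REV-ERB genes, had r = 0.45, which was −0.03 without DIO-LFD replicate 1 and DIO-VSG replicate 2. Without DIO-LFD replicate 1 alone, Per2 with Per3 was 0.74. Values of the 10 genes come from the same libraries, so the pairs are not independent of each other.

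**Figure D3:**
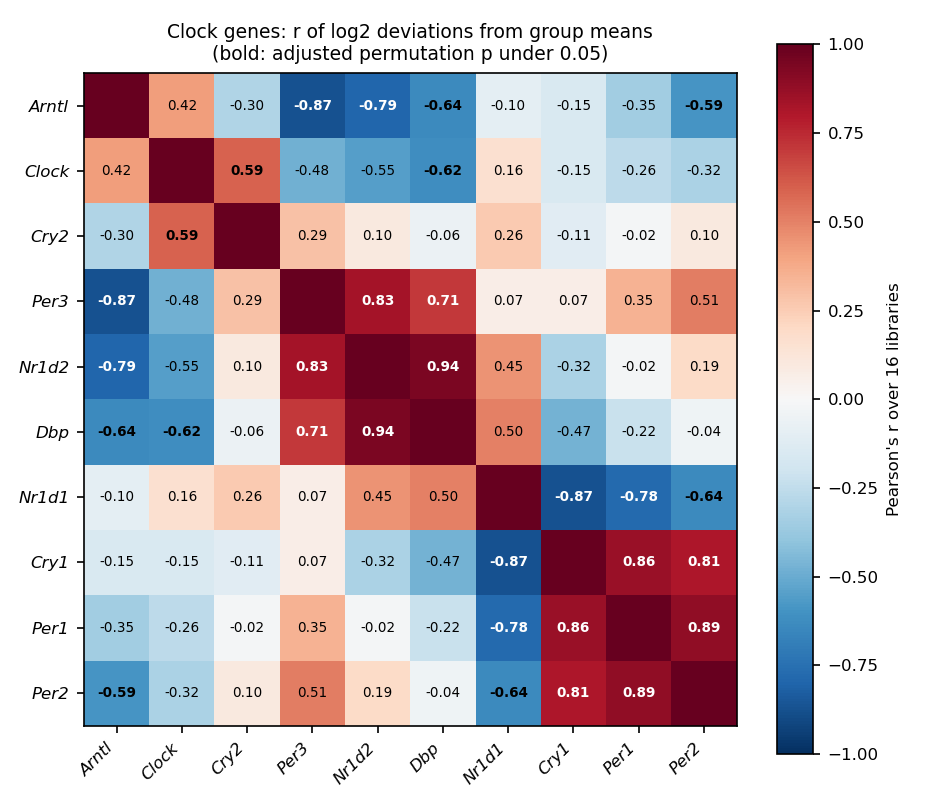
Pearson's r of log2 levels, after group means were subtracted, for the 45 pairs of clock genes over 16 libraries, from −1 (blue) to 1 (red), with bold for an adjusted permutation P below 0.05. Arntl is blue against Per3, Nr1d2 and Dbp, and Nr1d1 is blue against Cry1, Per1 and Per2.

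**Figure D4:**
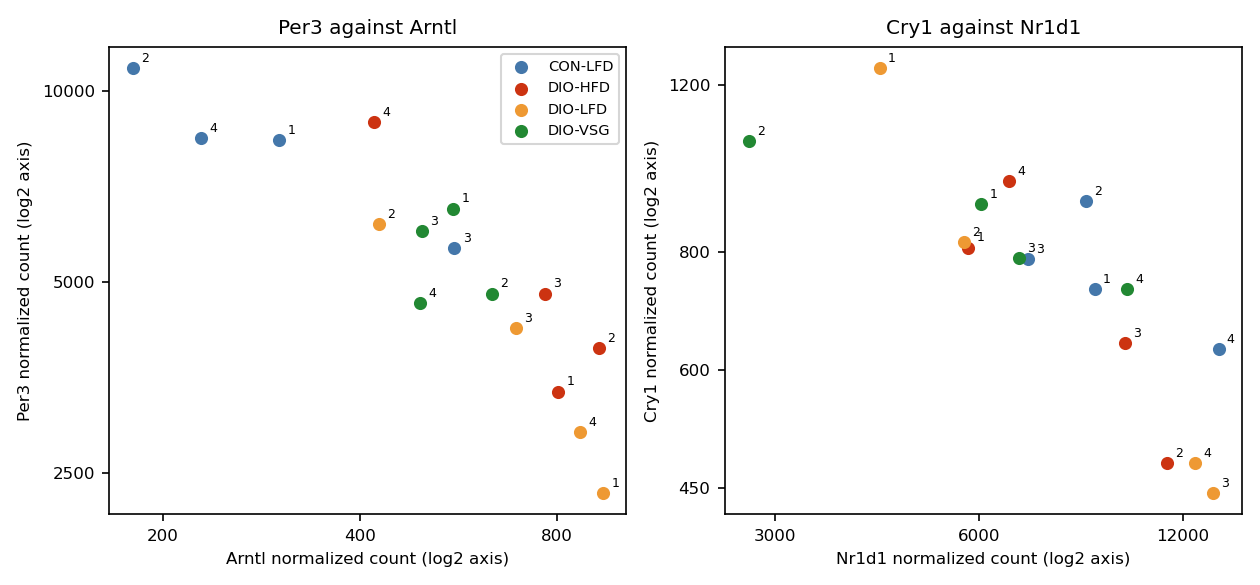
Normalized counts of Per3 against Arntl (left) and of Cry1 against Nr1d1 (right) in the 16 libraries, on log2 axes, colored by group and marked by replicate number. Levels fall from upper left to lower right in both panels, with CON-LFD replicate 2 at 180 for Arntl and DIO-LFD replicate 1 at 941 at the ends of the left panel.

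Genes whose levels ran most like or most unlike Arntl and Dbp were sought among 13296 genes with a mean of at least 100 normalized counts, on the same log2 deviations over 16 libraries. Pearson's r is given here as a description. The most unlike Arntl were Tef (r = −0.93), Elmod3 (−0.90), Hlf (−0.88), Pcsk4 (−0.85) and Dgcr2 (−0.83). Tef and Hlf encode the other two factors of the family of DBP, which bind the same D-box. Tef was at 14111, 19530, 11158 and 15665 normalized counts in CON-LFD and at 8130, 7517, 8732 and 14842 in DIO-HFD, with the lowest CON-LFD and highest DIO-HFD value again in replicates 3 and 4.

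The most like Arntl were Elk3 (r = 0.86), Gpn2 (0.85), Dock8 (0.82), Smad7 (0.80) and Sec11a (0.80). For Dbp, the most like were Tmem45a (0.87), Pard6g, Lrtm1, Popdc2 and Wscd2 (0.86 each). The most unlike Dbp were Pecam1 (−0.92), Ctla2b (−0.89), Plekhg1 (−0.89), Igfbp3 (−0.88) and Plpp1 (−0.88). Pecam1 encodes a surface protein of endothelial cells and was highest, at 25489, in the library where Dbp was 329. Without DIO-LFD replicate 1, these 10 values for Dbp lay between 0.69 and 0.82 in size.

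The other clock-related genes, a list of 28 regulators, kinases and outputs of the loop, also had 0 members past the adjusted threshold in each comparison (limma). At an unadjusted P value below 0.05, 8 of 28 were lower and none higher in DIO-HFD than in CON-LFD, against 7.66% lower and 5.23% higher over all genes. The lowest P values were those of Bhlhe41, a repressor at E-boxes (log2 fold change −0.87, limma adjusted P = 0.215), Ciart, a repressor of the ARNTL pair (−1.19, limma adjusted P = 0.247), and Nampt, an enzyme of NAD synthesis (−0.81, limma adjusted P = 0.247). Bhlhe41, Ciart, Nampt and Usp2 lay wholly below CON-LFD in DIO-HFD, 4 of 28 against 3% of all genes. Ciart was at 486, 561, 367 and 591 normalized counts in CON-LFD and at 226, 155, 171 and 365 in DIO-HFD.

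In DIO-LFD against CON-LFD, 2 of the 28 were higher and 4 lower at an unadjusted P value below 0.05, against 3.23% and 3.03% of all genes, with the lowest P for Ciart (log2 fold change −1.27, limma adjusted P = 0.533), Nono (−0.25, limma adjusted P = 0.601) and Hlf (−0.97, limma adjusted P = 0.617). In DIO-VSG against CON-LFD 2 of 28 were marked, against 17.8% of all genes, both lower, Hdac3 (−0.22) and Csnk1e (−0.27), and Arntl2 was next at −0.49 (limma adjusted P from 0.271 to 0.288). Against DIO-HFD, Bhlhe41 was 0.61 higher on the log2 scale in DIO-LFD (limma adjusted P = 0.502) and 0.58 higher in DIO-VSG (limma adjusted P = 0.334). Those comparisons share the DIO-HFD libraries and held 4 and 1 of the 28 at an unadjusted P value below 0.05, against 8.53% and 13.2% of all genes.

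The other leading genes of these comparisons were Nfil3, which encodes a repressor at D-boxes (0.96), and Tipin (−0.35) in DIO-LFD, and Ncor1 (−0.24) and Csnk1e (−0.25) in DIO-VSG. Between DIO-VSG and DIO-LFD, 1 of the 28 was higher and 3 lower at an unadjusted P value below 0.05, against 9.71% of all genes either way, led by Npas2, an activator related to Clock (log2 fold change −1.85, limma adjusted P = 0.509), then Csnk1e (−0.32) and Nfil3 (−0.71). Npas2 was at 402, 76.4, 247 and 302 normalized counts in DIO-LFD and at 48.8, 54.0, 61.6 and 79.1 in DIO-VSG, which overlapped through DIO-LFD replicate 2.

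Lists of genes that respond to conditions known to shift peripheral clocks were read beside the clock genes, and 0 of their members passed the adjusted threshold in any comparison (limma). Of 10 feeding and fasting responsive genes, 4 were lower in DIO-HFD than in CON-LFD at an unadjusted P value below 0.05, against 7.66% of all genes. Against DIO-HFD, 5 were higher and 1 lower in DIO-LFD, where 8.53% of all genes were marked either way, and 5 were higher and 2 lower in DIO-VSG, where 13.2% were. Srebf1, which encodes a regulator of fat synthesis, had log2 fold changes of −0.80, 1.01 and 0.75 in these comparisons (limma adjusted P = 0.182, 0.296 and 0.246), and Fasn, the fatty acid synthase gene, −3.42, 3.55 and 3.91 (limma adjusted P = 0.237, 0.424 and 0.246). In DIO-VSG against DIO-LFD 1 of the 10 was lower (9.71% of all genes either way), and DIO-LFD and DIO-VSG against CON-LFD had 0.

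Of 12 glucocorticoid-responsive genes, 1 was lower in DIO-HFD and 2 in DIO-VSG than in CON-LFD at an unadjusted P value below 0.05 by limma, Klf9 being in both (log2 fold change −0.66 and −0.74, limma adjusted P = 0.263 and 0.268). The shares over all genes were 12.9% and 17.8% either way. Among these genes 1 was higher in DIO-LFD than in CON-LFD (3.23% of all genes) and 1 than in DIO-HFD (8.53% either way), 1 was lower in DIO-VSG than in DIO-LFD (9.71% either way), and DIO-VSG against DIO-HFD had 0. Of 10 immediate early genes, 2, 4 and 2 were higher than in CON-LFD in DIO-HFD, DIO-LFD and DIO-VSG, against 5.23%, 3.23% and 10.2% of all genes, 1 and 2 were lower in DIO-VSG than in DIO-HFD and DIO-LFD (13.2% and 9.71% either way), and DIO-LFD against DIO-HFD had 0. Of 8 temperature responsive genes, 2 were higher in DIO-VSG than in CON-LFD (10.2% of all genes), 1 than in DIO-HFD and 1 than in DIO-LFD (13.2% and 9.71% of all genes either way), 1 was higher in DIO-LFD than in CON-LFD (3.23%), and the other 2 comparisons had 0. Rbm3, a cold-induced RNA-binding protein, was 0.58 higher on the log2 scale in DIO-VSG than in DIO-LFD (limma adjusted P = 0.509) and 0.42 higher than in CON-LFD (limma adjusted P = 0.268). The part of feeding, glucocorticoids, handling or temperature in the clock gene levels was not tested.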

How the data were processed

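The authors prepared stranded total RNA libraries (Illumina TruSeq), sequenced them in pairs and aligned reads to GRCm38. The study's methods name STAR, salmon and a Gencode annotation, and the submitters' processing notes name TopHat2 2.0.7 and HTSeq 0.5.3p9. The sources do not say which of these made the table. Genes whose counts summed to fewer than 10 were dropped by the authors, who deposited log2 values, which are a variance-stabilizing transformation from DESeq2 although described as normalized counts. The design assumed normalized counts, so the transformation was inverted. This gave whole reads for 100.0% of values (tolerance 0.01) and size factors from 0.9036 to 1.2204. Of the columns of values, 0 had no sample.

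limma-trend (limma 3.58.1, R 4.3.3) was run on log2(normalized count + 1) in 1 fit of 16 libraries with group as the only term, after a filter that kept 21218 genes (10 or more normalized counts in 4 or more libraries). Fold changes are on that scale, which understates changes of low genes. Tests were two-sided, with Benjamini-Hochberg adjustment within each comparison. On simulated data the test was checked for recovery of known changes. Correlations used Python 3.11.15 and scipy 1.17.1. Gene positions are from GENCODE M21. Replicate pairs had r from 0.903 to 0.983 across genes, which are not independent replicates, and no pair agreed within sampling noise. Each library has a number of its own in the labels, which do not say whether it is 1 mouse, so P values measure the spread between these libraries, which may be technical. No batch is labelled.

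The 10 genes and the lists were chosen with earlier results of these data known. Named genes were all 10 members. Further named genes were the 3 of the 28 other clock-related genes, and at most 2 of each context list (feeding, glucocorticoid, immediate early, temperature), with the smallest P in a comparison, and the 5 genes most and least like Arntl and Dbp. Srebf1, Fasn, Klf9 and Rbm3 stand for their lists in the text. Usp2 was named after its values were seen. Alternatives were other pseudocounts, filters, scalings, the deposited values, voom on recovered reads, library weights, only the groups compared, lymphoid or adipocyte scores as a term, a replicate block and each library left out.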

Additional observations from a re-analysis of the deposited data

Results flagged for a closer look

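In 2 of the 40 sets of 4 libraries formed by a gene and a group, the highest or lowest library stood apart by Dixon's 95% criterion for 4 values, where chance gives about 1 in 20. Per1 in DIO-VSG replicate 4 was at 4974 normalized counts, below the other 3 libraries, which lay between 7568 and 7829 (gap over range 0.925 on the log2 scale). Nr1d2 in DIO-HFD replicate 4 was at 7515 normalized counts, above the other 3 libraries, which lay between 5668 and 5944 (gap over range 0.831).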

How the results depend on the processing

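The 60 log2 fold changes of the 10 genes were recomputed under 29 alternatives. Of 1740 refits, 66 changed sign, all of values that did not pass, and 5 passed the adjusted threshold. The cause was not tested in any case. With library weights, 2 clock genes passed in DIO-LFD against DIO-HFD (Clock 0.53, limma adjusted P = 0.0249, and Per3 −1.10, limma adjusted P = 0.0204), 1 in DIO-VSG against CON-LFD and 4 other clock-related genes each in DIO-HFD and DIO-VSG against CON-LFD, where 19.8% and 19.9% of all genes passed. Weights also gave 3 other clock-related genes in DIO-LFD and 2 in DIO-VSG against DIO-HFD (8.54% and 17.6% of all genes), and 4 clock genes in the test over the 4 groups (34.8%). Fitting only the groups compared gave 1 other clock-related gene in DIO-VSG against DIO-LFD (7.22% of all genes). Leaving out 1 library gave 0 to 1 clock genes in DIO-HFD and in DIO-VSG against CON-LFD, where the 1 was Arntl without CON-LFD replicate 3 (0.603% and 4.11% of all genes). Without the 2 farthest libraries of each pair, 9 of the 15 correlations passed, over 14 libraries. Without subtracting group means 15 passed, 12 of them shared, and 13 did without DIO-LFD replicate 1, 12 shared, which was chosen after seeing the data. Replicate numbers did not pair the libraries (r of deviations from −0.609 to 0.534), and a replicate block left 0 clock genes past the threshold in each comparison. Members had at least 170 reads in every library.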

Other observations

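Among the glucocorticoid-responsive genes, Fkbp5 and Mt2 were singled out after their values were seen. Fkbp5, which encodes a chaperone partner of the glucocorticoid receptor, was at 27642, 12690, 1906 and 1520 normalized counts in DIO-LFD replicates 1 to 4. Mt2, a metallothionein gene, was at 10958, 3778, 407 and 326. Replicates 1 and 2 were above replicates 3 and 4 for both, as for 11 of the 12 genes of the list and for Per1, Per2 and Cry1. In DIO-VSG the highest library for Fkbp5 (12041) and Mt2 (3553) was replicate 2, the highest library for 8 of the 12 genes, which also held the highest Per1 (7829), Per2 (4209) and Cry1 (1046) and the lowest Nr1d1 (2741) of its group. In CON-LFD, Fkbp5 was at 4274, 9092, 6127 and 3641 and Mt2 at 993, 1550, 1148 and 1029, and replicate 2, the highest of its group for 6 of the 12 genes, also had the highest Per1 (9956), Per2 (6764) and Cry1 (904). Replicate 3 of CON-LFD was the highest for 5 of the 12 genes and in their sum (74870). It had the lowest Per2 of its group (3592), with Per1 at 8182 and Cry1 at 786. In DIO-HFD, Fkbp5 was at 4504, 2468, 3634 and 4775 and Mt2 at 876, 1667, 1182 and 814, and replicate 2, the highest of its group for 6 of the 12 genes, had the lowest Per1 (4055), Per2 (1851) and Cry1 (478). Fkbp5 ranked the DIO-HFD libraries as these 3 clock genes did, and Mt2 did not. How many of all genes tested ordered the libraries in the same way was not counted. The counts therefore do not set the glucocorticoid-responsive genes apart from other genes. All are values of the same libraries, and no test was made on them.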
